A study of Mus musculus with 2 samples.

Results

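Genes that carry small nucleolar RNAs (snoRNAs) in their introns, and a set of long noncoding RNAs (lncRNAs) known for their abundance or their links to tumors, were compared between a metastatic and a primary neuroendocrine tumor xenograft. Members were taken by symbol. They were every label with a numbered SNHG symbol, together with the 3 further host genes GAS5, EPB41L4A-AS1 and ZFAS1 and the 8 lncRNAs MALAT1, NEAT1, NORAD, OIP5-AS1, TUG1, CRNDE, UCA1 and HOTAIR. A total of 36 rows matched, which gave 33 members among 57011 labels, 23 of them SNHG genes and 10 of them from the 11 named genes. OIP5-AS1 was not analysed here. Of the 33 members, 27 reached at least 1 FPKM in at least 1 library and are called expressed below, 22 of them snoRNA host genes and 5 of them other lncRNAs.

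The metastatic library came from a human gastroenteropancreatic neuroendocrine tumor labelled metastatic and grown in the peritoneal cavity of athymic nude mice (Foxn1nu). The primary library came from a tumor of the same type labelled primary and grown in the flank of such mice. No treatment was given, and each tumor was broken up into a cell pellet before its RNA was extracted. Each group held 1 library, so no difference had a replicate check, no test was run, and tumor origin cannot be told apart from graft location. The mice lack the thymus but keep their own stroma and innate immune cells, and how mouse reads were treated is not given in the sources used here. Levels are FPKM, by definition fragments scaled by transcript length and by a library total. Whether each column was divided by its own total is unknown. A log2 ratio is metastatic over primary after adding 1 FPKM to each value.

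A snoRNA host gene is transcribed and spliced like other genes, and its snoRNAs are trimmed out of the removed introns. Box C/D snoRNAs guide methylation and box H/ACA snoRNAs guide pseudouridine formation, mainly on ribosomal RNA. In a noncoding host the spliced exons are left without a protein to encode, and many such transcripts start with a pyrimidine tract shared with ribosomal protein mRNAs and are broken down by nonsense-mediated decay when ribosomes reach them. MALAT1 and NEAT1 are neighbouring genes whose long RNAs stay in the nucleus, MALAT1 at nuclear speckles and NEAT1 as the scaffold of paraspeckles. NORAD is an abundant cytoplasmic RNA, and TUG1, CRNDE, UCA1 and HOTAIR are lncRNAs studied in development and in many tumors.

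The summed FPKM of the table was 885319 in the metastatic and 784987 in the primary library, and read depth is unknown. Among the 22 expressed hosts, 8 stood alone in their row and 14 stood in merged loci; over all 27 expressed members 11 stood alone. Of the 16 merged loci, 11 carried only names of small RNAs, 4 only clone names and 1 both, and 0 carried another named gene. Whether fragments of a resident snoRNA count for such a locus is not stated. Defining markers of the labelled neuroendocrine tissue were mixed. Of 12, 6 were expressed in usable rows, 3 were under 1 FPKM, 1 was listed at 0 and 2 stood only in loci merged with other genes. Of the 6 expressed, 1 was past 2-fold upward and 3 downward, beside 9.22% upward and 9.35% downward of all expressed labels. Their median log2 ratio was -1.21 and depended on the processing. It was -2.31 with 0.1 FPKM added in place of 1, -0.25 without the filter on low values and -0.42 with a filter of 5 FPKM. UCHL1, a neuroendocrine deubiquitinase, was the higher one, at 705 FPKM in the metastatic and 225 in the primary xenograft. The convertase PCSK1, at 2.74 FPKM in the metastatic and 19.9 in the primary, the transcription factor INSM1, at 0.271 in the metastatic and 3.54 in the primary, and the granin SCG2, at 0.340 in the metastatic and 2.62 in the primary, were the lower ones. SYP, encoding synaptophysin, stood at 1.96 FPKM in the metastatic and 1.63 in the primary xenograft, and CHGA was listed at 0 in both. Genes known from nearly every cell, such as FBL and RPL7A, were also listed at 0 in both libraries, so a listed 0 can be a failed estimate.

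The most abundant member was MALAT1, with 4073 FPKM in the metastatic and 3666 in the primary xenograft, a log2 ratio of 0.15. It ranked 21st among 13811 expressed labels in the metastatic library and 29th in the primary library. SNHG5, a host known for its SNORD50 snoRNAs, stood at 1663 FPKM in the metastatic and 1327 in the primary xenograft. SNHG6, merged with SNORD87, stood at 1689 FPKM in the metastatic and 1202 in the primary xenograft. These 3 members were within the 100 highest labels of each library. GAS5, which is named for its accumulation in growth-arrested cells and hosts a cluster of box C/D snoRNAs, stood at 958 FPKM in the metastatic and 908 in the primary xenograft. SNHG5, SNHG6 and GAS5 together held 60.5% of the summed host FPKM in the metastatic and 58.9% in the primary library. All 27 members summed to 11379.7 FPKM in the metastatic and 9920.2 in the primary library, which was 1.29% of the summed FPKM of the metastatic and 1.26% of that of the primary library. The share held by these noncoding genes was thus nearly the same. Within it the hosts held 0.805% in the metastatic and 0.743% in the primary library. The other lncRNAs held 0.481% in the metastatic and 0.520% in the primary library.

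**Figure D1:**
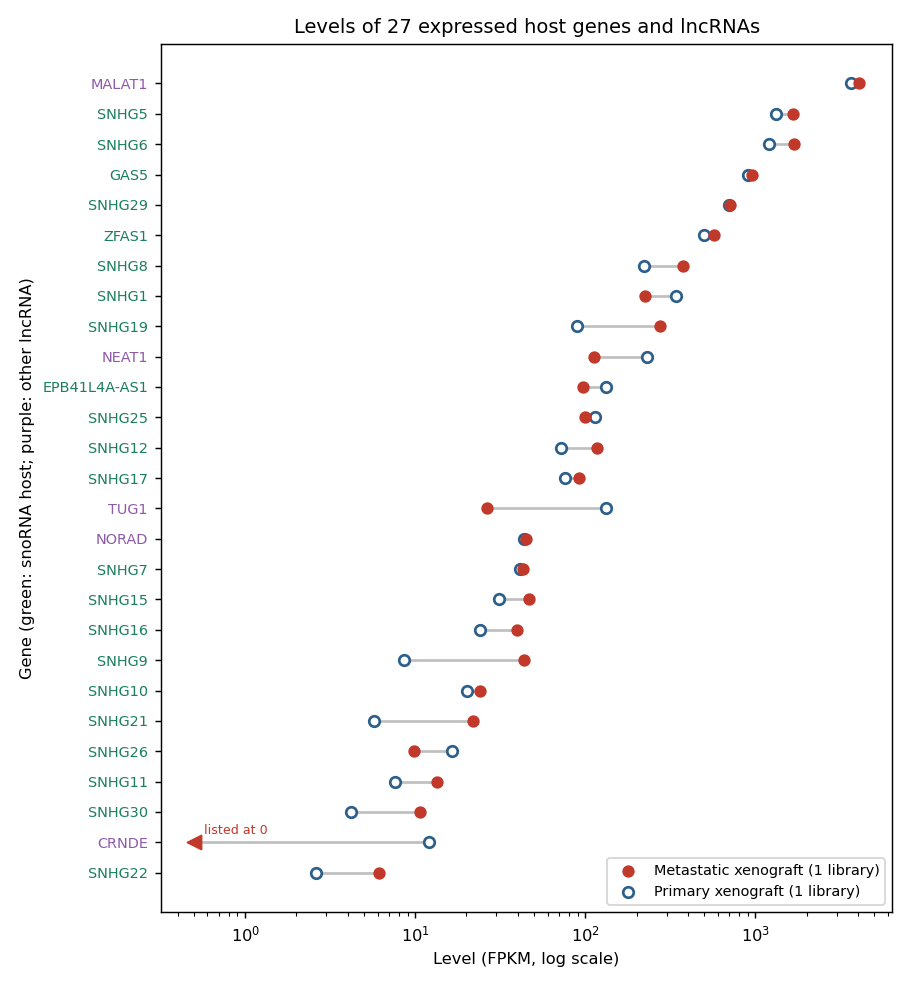
Level of each expressed member in FPKM on a log axis, ordered by the mean of both libraries, with filled points for the metastatic and open points for the primary xenograft, 1 library each. The most abundant genes, from MALAT1 at 4073 FPKM in the metastatic and 3666 in the primary xenograft down to ZFAS1 at 574 in the metastatic and 496 in the primary, lie close together in both libraries, while SNHG9, SNHG19 and TUG1 lie far apart and CRNDE was listed at 0 in the metastatic library.

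At a 2-fold difference, 4 of the 27 expressed members were higher in the metastatic xenograft and 3 were lower. Over all 13811 expressed labels, 9.22% passed that threshold upward and 9.35% downward. Among the 26 members of at least 10 FPKM in a library the same 4 were higher and the same 3 lower, beside 9.91% upward and 7.92% downward of 7686 labels of that level. The members' counts, 14.8% higher and 11.1% lower, are too small to set them apart from this background. The calls differed in direction between the classes. All 4 higher members were snoRNA hosts, of which 0 of 22 were 2-fold lower, and all 3 lower members were among the 5 other lncRNAs, of which 0 were 2-fold higher. The median log2 ratio was 0.41 over the hosts and -1.02 over the other lncRNAs, beside 0.03 over all expressed labels. Over labels of at least 10 FPKM it was 0.14, so the background rose with level. No median was taken over labels of the hosts' own level. The median of the other lncRNAs rests on few genes: it was -0.49 without CRNDE, 0 without the filter on low values, and 0.035 without merged loci, where only CRNDE, MALAT1 and NORAD are left.

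SNHG9 had the largest ratio among the members. This short host, known for SNORA78, stood at 43.8 FPKM in the metastatic and 8.62 in the primary xenograft, a log2 ratio of 2.22. It was the 1 member more than 4-fold higher. It lies beside the ribosomal protein gene RPS2, which stood at 2511 FPKM in the metastatic and 1913 in the primary xenograft with a log2 ratio of 0.39. For every 100 FPKM of RPS2 there were 1.75 FPKM of SNHG9 in the metastatic and 0.450 in the primary library, so the host and its coding neighbour differed by unequal amounts.

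SNHG19 was the only member with a mean of at least 100 FPKM that was 2-fold higher. It stood at 275 FPKM in the metastatic and 88.7 in the primary xenograft, a log2 ratio of 1.62. The box C/D snoRNA SNORD60, which lies in SNHG19, has a row of its own at 112 FPKM in both libraries. Values of short RNAs were coarse in this table. Of 26 labels made only of snoRNA names and above 0 in both libraries, 11 had identical values within 0.01%, among them SNORD60 itself and SNORD100 at 215 FPKM. The row of SNORD60 therefore cannot show whether the snoRNA differed as its host did.

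The other hosts past 2-fold were low in both libraries. SNHG21, merged with a clone name, stood at 21.8 FPKM in the metastatic and 5.68 in the primary xenograft, a log2 ratio of 1.77. SNHG30, merged with SNORD7, stood at 10.7 FPKM in the metastatic and 4.18 in the primary xenograft, a log2 ratio of 1.18. SNHG22 lay just under the threshold, at 6.12 FPKM in the metastatic and 2.62 in the primary xenograft with a log2 ratio of 0.98, and passed it when 0.1 or 0.5 FPKM was added in place of 1. Low hosts ran higher as a group. The 12 hosts with a mean under 100 FPKM had a median log2 ratio of 0.69, with 11 of them above 0, and the 10 hosts with a mean of at least 100 FPKM had a median of 0.14, with 7 above 0.

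Most hosts leaned to the metastatic side without reaching 2-fold. Of 22 hosts, 18 had a log2 ratio above 0, beside 51.8% of all expressed labels. After rescaling both libraries to the same sum, 15 hosts were above 0, beside 43.6% of all labels. With and without this rescaling, 17 hosts lay above the median of all labels. Labels of higher level also leaned this way. Without rescaling, 54.6% of labels of at least 5 FPKM were above 0, as were 4420 of the 7686 labels of at least 10 FPKM. In the plot of log2 ratio against mean log2 level, most labels in the cells starting at 7.0 and at 8.25 lay above 0. In the cells starting at 4.25, about as many lay below 0 as above. The hosts were not counted against labels of their own level, so the part of level in their lean was not tested. SNHG8, which carries a box H/ACA snoRNA, stood at 373 FPKM in the metastatic and 220.0 in the primary xenograft, a log2 ratio of 0.76. SNHG12, merged with SNORA16A, SNORA44 and SNORA61, stood at 117 FPKM in the metastatic and 72.3 in the primary xenograft. SNHG16, a host studied as an oncogenic lncRNA, stood at 39.6 FPKM in the metastatic and 23.9 in the primary xenograft. These 3 hosts had log2 ratios between 0.68 and 0.76. SNHG11, which carries SNORA60 and SNORA71E, stood at 13.4 FPKM in the metastatic and 7.61 in the primary xenograft. SNHG15, merged with SNORA9, stood at 46.5 FPKM in the metastatic and 31.2 in the primary xenograft. SNHG6, given above, had a log2 ratio of 0.49 and SNHG5 one of 0.32.

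A further group of hosts was nearly level between the libraries. SNHG29, a host of SNORD49A, SNORD49B and SNORD65, stood at 704 FPKM in the metastatic and 698 in the primary xenograft. ZFAS1, the antisense host of SNORD12 and SNORD12B at the ZNFX1 gene, stood at 574 FPKM in the metastatic and 496 in the primary xenograft. SNHG17, which carries snoRNAs of the SNORA71 family, stood at 91.3 FPKM in the metastatic and 75.5 in the primary xenograft. These hosts and GAS5 lay within a log2 ratio of 0.01 to 0.27. SNHG7 stood at 43.0 FPKM in the metastatic and 41.0 in the primary xenograft, and SNHG10, merged with the Cajal body RNA SCARNA13, at 23.9 FPKM in the metastatic and 20.1 in the primary xenograft. For GAS5, SNHG7 and SNHG29 the sign of the ratio changed with the scaling, so no direction is given for them.

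Without rescaling, 4 of the 22 expressed hosts were lower in the metastatic xenograft, and 0 of them by 2-fold. SNHG1, merged with 6 box C/D snoRNAs from SNORD22 to SNORD30, stood at 224 FPKM in the metastatic and 342 in the primary xenograft, a log2 ratio of -0.61. EPB41L4A-AS1, which carries SNORA13, stood at 96.3 FPKM in the metastatic and 133 in the primary xenograft, a log2 ratio of -0.46. SNHG26 stood at 9.84 FPKM in the metastatic and 16.4 in the primary xenograft, and SNHG25 at 99.3 in the metastatic and 114 in the primary. All 4 stayed below 0 under every scaling tried. The hosts thus did not differ as 1 block: SNHG8 stood above SNHG1 in the metastatic library and below it in the primary library.

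**Figure D2:**
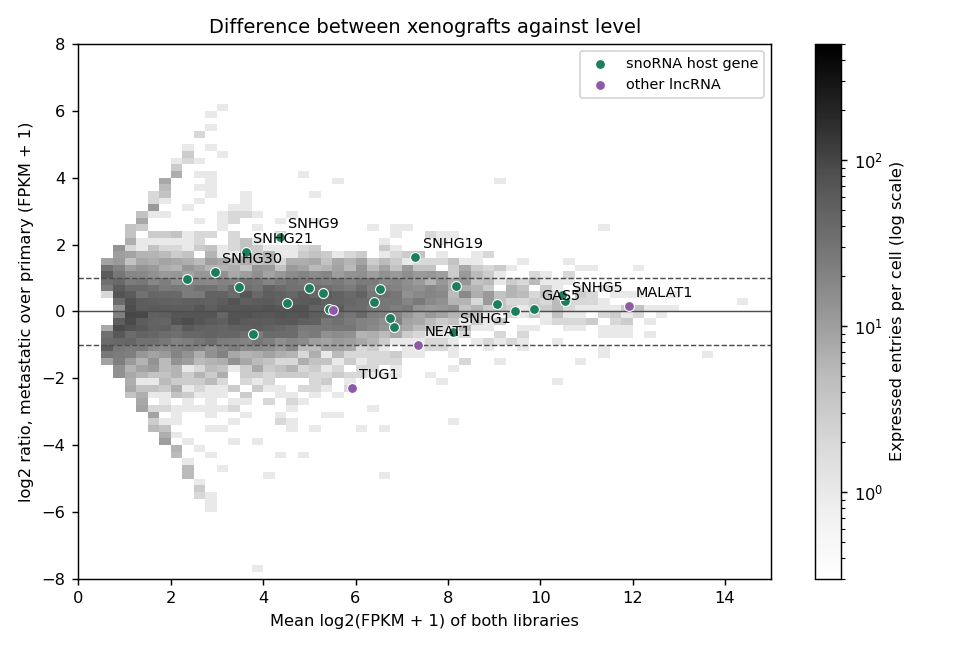
The log2 ratio of metastatic over primary FPKM (1 FPKM added) against the mean log2 level of both libraries. Grey cells count the 13811 expressed labels on a log scale, green points are snoRNA hosts, purple points are other lncRNAs, and dashed lines mark a 2-fold difference; SNHG9 at 2.22 and TUG1 at -2.29 lie in the sparse outer part of the grey cells at their level, and CRNDE is left out because it was listed at 0 in the metastatic library.

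The class of snoRNA named in the merged labels, which played no part in the choice of members, did not separate the hosts. The 6 hosts merged with box C/D snoRNAs had a median log2 ratio of 0.35, from -0.61 for SNHG1 to 1.18 for SNHG30. The 5 hosts merged with box H/ACA snoRNAs had a median of 0.56, from 0.06 for SNHG7 to 0.74 for SNHG11. The ranges overlap. The 8 hosts that stood alone had a median of 0.54 and the 14 in merged loci one of 0.38, so hosts leaned to the metastatic side with and without other names in the label.

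Of the other lncRNAs, TUG1 was the furthest lower with a value above 0 in both libraries. This gene, named from its upregulation by taurine and needed for retinal development in mice, stood at 26.4 FPKM in the metastatic and 133 in the primary xenograft, a log2 ratio of -2.29. Its row also carries 4 clone names, and whether part of the value belongs to those transcripts was not tested. It ranked 4074th in the metastatic and 844th in the primary library. No host stood so many ranks lower in the metastatic library.

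NEAT1, whose long isoform builds paraspeckles, was lower in the metastatic xenograft while its neighbour MALAT1 was not. NEAT1 stood at 113 FPKM in the metastatic and 230.0 in the primary xenograft, a log2 ratio of -1.02, just past the threshold. For every 100 FPKM of MALAT1 there were 2.77 FPKM of NEAT1 in the metastatic and 6.27 in the primary library. This ratio within a library does not depend on the scaling between libraries. The log2 ratio of NEAT1 ran from -1.19 to -1.02 over the scalings, and that of MALAT1 from -0.02 to 0.15, so no direction is given for MALAT1.

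CRNDE, an lncRNA named for its expression in colorectal neoplasia, was listed at 0 in the metastatic xenograft and stood at 12.0 FPKM in the primary xenograft. No fold is given against a listed 0, and its count among the 3 lower members rests on the added 1 FPKM. Over the 4 other lncRNAs above 0 in both libraries, without CRNDE, the median log2 ratio was -0.49. NORAD, which guards chromosome stability in human cells, stood at 44.9 FPKM in the metastatic and 43.8 in the primary xenograft. Its sign also changed with the scaling.

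The 6 members that were not expressed complete the set. SNHG31 stood at 0.169 FPKM in the metastatic and 0.473 in the primary xenograft, and SNHG18 was listed at 0 in the metastatic and stood at 0.211 in the primary. HOTAIR, a lncRNA of the HOXC cluster linked to metastasis in breast cancer, and UCA1, named from urothelial cancer, were listed at 0 in both libraries, as were SNHG27 and SNHG32. SNHG32 was the 1 member with several rows, 4 in all. Such labels were often at 0. Among single symbols shared with mouse genes, 68.9% of 838 labels with at least 2 rows were listed at 0 in both libraries, against 11.0% of 13804 labels with 1 row, so the listed 0 of SNHG32 is not read as absence of its RNA.

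**Figure D3:**
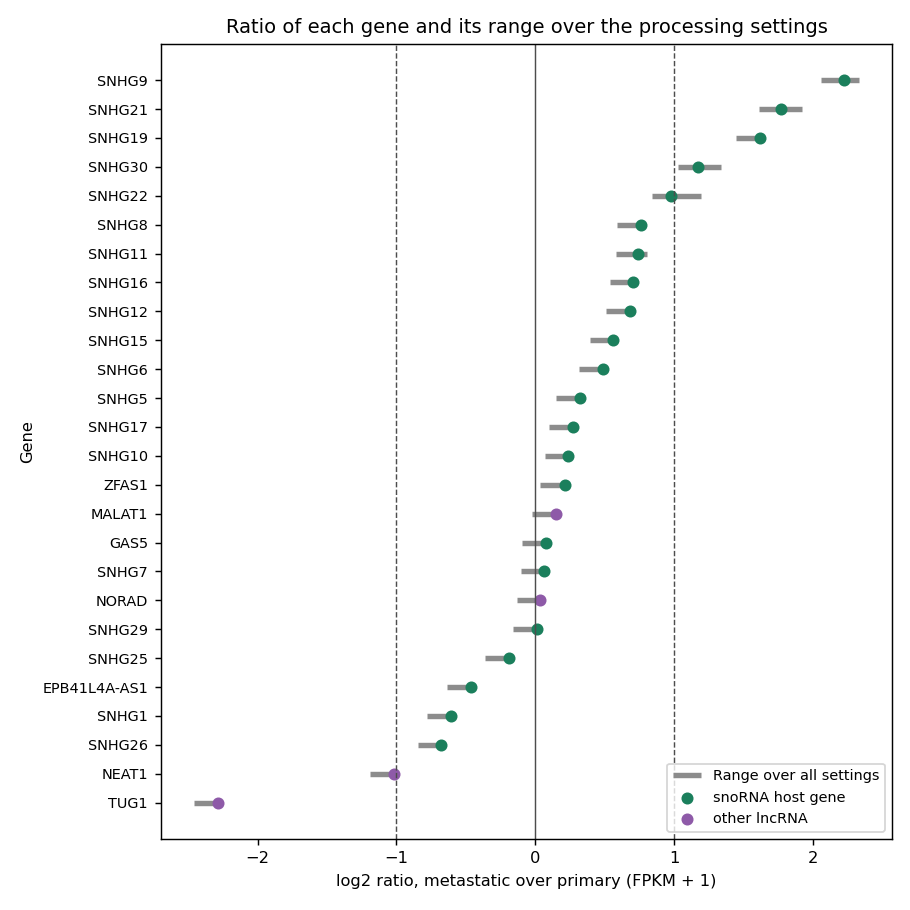
The log2 ratio of metastatic over primary for the 26 expressed members above 0 in both libraries, ordered by size, with grey bars from the lowest to the highest value over the processing settings and dashed lines at a 2-fold difference. SNHG9, SNHG21, SNHG19 and SNHG30 stay right of the upper line and TUG1 and NEAT1 stay left of the lower line, while the bar of SNHG22 crosses the upper line and those of GAS5, SNHG7, SNHG29, MALAT1 and NORAD cross 0.

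The proteins that bind snoRNAs were higher in the metastatic xenograft by more than most hosts. Each snoRNA class is packed with 4 core proteins. Of these 8 genes, 7 were expressed, with log2 ratios from 0.90 to 1.38 and a median of 1.16. Of the 7, 6 were higher by 2-fold or more, beside 9.22% of all labels and 9.91% of labels of at least 10 FPKM. Neither share is matched to the level of these genes, and at the level of most of them 2-fold higher labels were more common. After rescaling both libraries to the same sum 3 of the 7 passed 2-fold, beside 6.67% of all labels. NOP56, a box C/D core protein that itself hosts snoRNAs, stood at 518 FPKM in the metastatic and 198 in the primary xenograft. The box H/ACA protein NOP10 stood at 243 FPKM in the metastatic and 94.1 in the primary xenograft. DKC1, the pseudouridine synthase mutated in dyskeratosis congenita, stood at 149 FPKM in the metastatic and 71.4 in the primary xenograft. The remaining core genes were alike. The levels of NOP58, NHP2, GAR1 and SNU13 were 203, 265, 72.7 and 463 FPKM in the metastatic xenograft, against 99.6, 118, 31.5 and 248 FPKM in the primary xenograft. FBL, the methyltransferase of box C/D particles, was listed at 0 in both. The median stayed above 0 under every scaling, with a lowest value of 0.85, for the box C/D list.

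Factors that assemble these particles differed less. Of 10 assembly genes, 9 were expressed, of which 2 passed 2-fold upward and 0 downward, a count too small to set beside the 9.22% and 9.35% of all labels, and the median log2 ratio was 0.21. The ATPase RUVBL1 stood at 79.2 FPKM in the metastatic and 29.7 in the primary xenograft, and the nucleolar phosphoprotein NOLC1 at 129 in the metastatic and 60.8 in the primary. RUVBL2, the partner of RUVBL1, stood at 83.2 FPKM in the metastatic and 70.1 in the primary xenograft. The chaperone pair was thus unequal between the libraries.

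Protein-coding snoRNA hosts gave a level picture. Of 50 symbols listed, 40 were expressed in usable rows, with 3 past 2-fold upward and 0 downward, beside 9.22% upward and 9.35% downward of all labels. The median log2 ratio was 0.08 and turned to -0.10 after rescaling to the same sum. The 3 were NOP56, NOP58 and DKC1, which are also core proteins. The 19 ribosomal protein hosts had a median of 0.01 and ranged from -0.31 to 0.57, so they resembled GAS5 and SNHG29 more than SNHG9 or SNHG19. ATP5F1B, a subunit of ATP synthase that hosts snoRNAs, stood at 1650.2 FPKM in the metastatic and 905 in the primary xenograft. EIF4A2, a translation initiation helicase and host, stood at 412 FPKM in the metastatic and 705 in the primary xenograft.

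Nonsense-mediated decay genes, whose products act on many spliced host transcripts, were mostly within 2-fold. Of 10 genes, 9 were expressed in usable rows, 2 passed 2-fold upward and 0 downward, and the median log2 ratio was 0.49. The 2-fold counts stand beside 9.22% upward and 9.35% downward of all labels. With 6 of 9 above 0, beside 51.8% of all labels, the list is not set apart from the background. UPF2 stood at 45.5 FPKM in the metastatic and 20.9 in the primary xenograft, and UPF3B at 33.5 in the metastatic and 15.5 in the primary. The helicase UPF1 stood at 22.9 FPKM in the metastatic and 13.7 in the primary xenograft, below the threshold. The kinase SMG1 stood at 14.8 FPKM in the metastatic and 16.8 in the primary xenograft.

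Protein partners of the nuclear lncRNAs were also read. Of 10 paraspeckle genes 9 were expressed in usable rows, 2 past 2-fold upward and 0 downward, with a median log2 ratio of 0.31. That count is not set apart from the 9.22% upward and 9.35% downward of all labels. SFPQ, required for paraspeckles, stood at 278 FPKM in the metastatic and 224 in the primary xenograft, NONO at 323 in the metastatic and 363 in the primary, and TARDBP at 204 in the metastatic and 93.9 in the primary. SMARCA4, a chromatin remodelling ATPase also linked to paraspeckles, stood at 519 FPKM in the metastatic and 231 in the primary xenograft. Nuclear speckle genes had a median of 0.53 over 8, with 0 past 2-fold in either direction. SRSF5, a splicing factor, was the lowest of them at 239 FPKM in the metastatic and 405 in the primary xenograft.

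**Figure D4:**
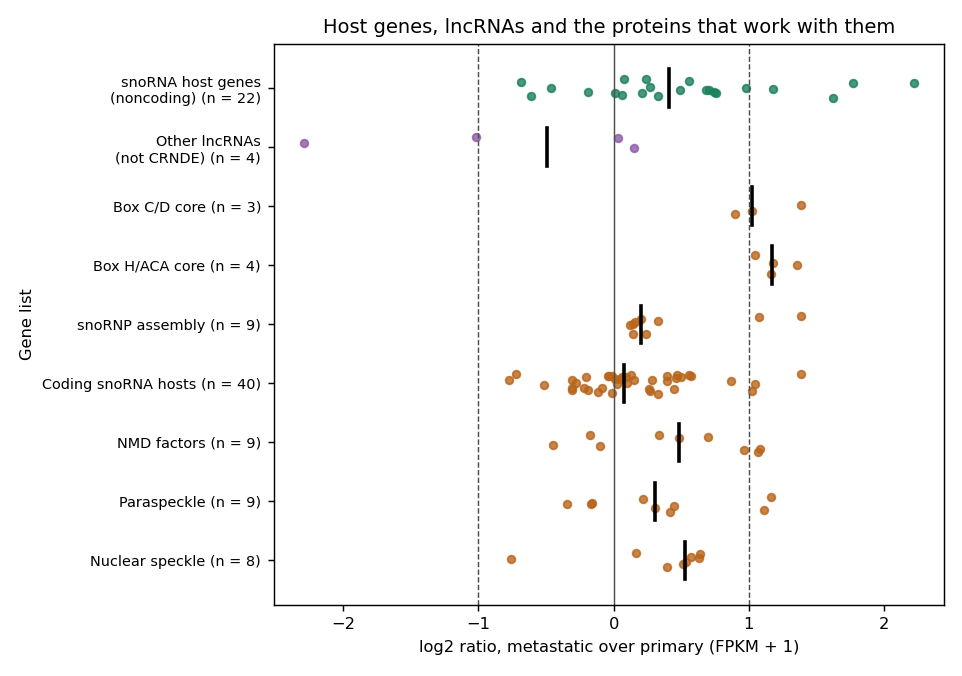
The log2 ratio of metastatic over primary for each expressed gene of 9 lists, with a black bar at the list's median and dashed lines at a 2-fold difference; the vertical scatter within a list has no meaning. The 7 core snoRNA-binding proteins lie between 0.90 and 1.38, to the right of most noncoding hosts, whose median is 0.41, and of the coding hosts, whose median is 0.08.

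Markers of other cells differed between the libraries in both directions. Of 10 fibroblast markers, 6 were expressed in usable rows, 4 past 2-fold downward and 1 upward, and 3 were under 1 FPKM. Over all expressed labels, 9.35% passed 2-fold downward and 9.22% upward. The list without PDGFRA summed to 160 FPKM in the metastatic and 523 in the primary xenograft. Most of both sums was COL1A2, at 149 FPKM in the metastatic and 474 in the primary. Endothelial markers summed to 4.80 FPKM in the metastatic and 27.1 in the primary, with KDR listed at 0 in both. Smooth muscle markers summed to 107 FPKM in the metastatic and 34.6 in the primary xenograft, with MYH11 at 0 in both, and most of that gap was MYL9, without which the sums were 25.9 FPKM in the metastatic and 22.4 in the primary. Leukocyte markers without CD68 summed to 12.8 FPKM in the metastatic and 4.78 in the primary, with CD3E at 0 in both. Without LYZ the direction turned, with 0.880 FPKM in the metastatic and 2.06 in the primary xenograft. In bulk RNA, fewer cells of a type and less RNA per cell cannot be told apart, and which cells gave the marker RNA was not tested. The part of such cells in the values of TUG1, NEAT1 or the hosts was not tested either. Transcript length also went with the ratio. Over 9380 genes with a mouse transcript of the same symbol, the Spearman coefficient between length and log2 ratio was -0.17, a description across genes. Such a length was found for 16 of the 27 members, too few for that check on them, so the part of length in the ratios of short hosts such as SNHG9 was not tested.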

How the data were processed

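RNA-seq libraries of 1 metastatic and 1 primary xenograft were analysed from the FPKM that the authors deposited in 1 table of 62573 rows. Per the submitters' processing notes, the tools were Cufflinks 2.2.1, STAR 2.7.6a and bcl2fastq 2.18.0.12 and the build was GRCh38 (human), each without a stated role. Annotation and filters are not given. Rows with the same label were summed, and genes were read from merged rows only where the other symbols were clones, small RNAs or antisense RNAs. The ratio was log2((metastatic + 1)/(primary + 1)) without rescaling, on labels of at least 1 FPKM in a library, and a call was a 2-fold difference. With 1 library per group no test was possible. The table holds no counts, so depth is unknown. Among 6509 rows with a value between 0 and 1 FPKM in each library, 12.7% had identical values within 0.01%, against 0.0154% when the metastatic values were multiplied by 0.95 or by 1.05. A single fragment may therefore be worth the same FPKM in both columns, and a difference in depth may remain in unscaled ratios. Members, lists and tests were chosen with earlier results of these data known. Each expressed member was named. From each related list, genes were named from among the 4 of largest absolute ratio, not always the largest of them. SYP, CHGA and KCNQ1OT1 were named outside this rule. SFPQ, NONO, FBL, RPL7A, SMG1, SNORD60, SNORD100, EIF4A2, CD3E, MYH11, KDR and the remaining core protein genes were named after their values were seen. A further list that the rule takes is not reported here. Fold calls were run on simulated data with planted differences past the threshold and small noise. That run checked only the calling step and cannot show how reliable the calls in these data are. Python 3.11.15 with pandas 2.3.3 was used.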

Additional observations from a re-analysis of the deposited data

How the results depend on the processing

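Alternatives were pseudocounts of 0.1 and 0.5 FPKM, no filter, a filter of 5 FPKM, 4 scalings, a 4-fold threshold, the highest row per label, members in merged loci left out and, added after the data were seen, labels listed at 0 left out. At 4-fold 1 member was higher and 2 were lower. Without merged loci 2 were higher and 1 lower, since SNHG21, SNHG30, TUG1 and NEAT1 stand in merged loci, and the median log2 ratio of the other lncRNAs turned to 0.035 over CRNDE, MALAT1 and NORAD. Without a filter that median was 0, because HOTAIR and UCA1 enter at 0. The counts otherwise stayed within 1.5 times. The median log2 ratio of all members stayed above 0 but came down to 0.072 with the same sum and 0.078 without a filter, against 0.24, and that of the hosts to 0.23 with the same sum, against 0.41. Rescaling to the same sum moved the median of all labels to -0.11 and the share of 2-fold calls that were higher to 35.9%, against 49.6% unscaled, and the same 7 members were called. No paired analysis was possible because each group holds 1 library. Depth is unknown, so the precision of low values cannot be given.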

Other observations

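Of 10 coding neighbours of the members, chosen with the members' values known, 6 differed in the same direction as their member, 3 in the opposite direction, and 1 stood beside HOTAIR, which was listed at 0 in both. Among the 6, IRX5, ZBTB37 and EPB41L4A were under 1 FPKM in both libraries, so their direction is not read. ZBTB37 stands beside GAS5, for which no direction is given either. The sizes varied, and TRNAU1AP, next to SNHG12, stood at 21.2 FPKM in the metastatic and 17.9 in the primary xenograft. PRSS12, next to SNHG8, stood at 18.6 FPKM in the metastatic and 54.7 in the primary xenograft, while SNHG8 stood at 373 FPKM in the metastatic and 220.0 in the primary xenograft. ZNFX1, which shares a promoter region with ZFAS1, stood at 6.25 FPKM in the metastatic and 2.59 in the primary xenograft. MORC2, divergent from TUG1, stood at 23.9 FPKM in the metastatic and 19.4 in the primary xenograft, so the lower value of TUG1 was not shared by this neighbour. SLC3A2, an amino acid transporter subunit beside SNHG1, stood at 199.8 FPKM in the metastatic and 163 in the primary xenograft, opposite in direction to SNHG1. IRX5, divergent from CRNDE, was listed at 0 in the metastatic and stood at 0.787 FPKM in the primary xenograft, and both genes of this pair were thus at 0 in the same library. EPB41L4A stood at 0.143 FPKM in the metastatic and 0.180 in the primary xenograft, far below its antisense host. GAS5-AS1 stood at 0.413 FPKM in the metastatic and 1.79 in the primary xenograft, and since the counting is not stated to use strand its reads cannot be told apart from those of GAS5.

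Among other well-known lncRNAs outside the members, 4 were expressed in usable rows. HULC, known from liver cancer, stood at 4.16 FPKM in the metastatic and 1.08 in the primary xenograft, and LINC-PINT at 10.6 FPKM in the metastatic and 6.18 in the primary xenograft. DLEU2 and FTX differed by less than 2-fold, and KCNQ1OT1 was under 1 FPKM in both libraries.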
